A study of Mus musculus with 8 samples.

Results

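Transcripts of p53 and of genes that respond to it were examined in mouse splenic follicular B cells with and without an activated GFP-ZFP36L1 allele. The set was 10 genes chosen by symbol, namely Trp53, Mdm2, Cdkn1a, Ccng1, Sesn1, Zmat3, Phlda3, Trp53inp1, Aen and Zfp385a. All 10 symbols matched 1 Ensembl gene each among the 43629 in the count table, and 9 had enough reads to enter the test over 13035 genes. Control libraries (n = 4) carried the Rosa26GFPZFP36L1 allele with no Cre named, and the other libraries (n = 4) carried Rosa26GFPZFP36L1 with CD23cre/+. The series title calls the control cells wild type. Every library therefore carries the allele, and Cre, driven from a gene switched on as B cells mature, is present only where GFP-ZFP36L1 is meant to be expressed, so the effects of Cre and of the protein cannot be told apart. Ages, strains and the animals behind each library are not in the labels, so every p-value reflects only how much the libraries of a group vary, which may be technical.

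p53, the product of Trp53, is a transcription factor held at a low level by Mdm2, a ubiquitin ligase that p53 itself induces. When DNA damage or other stress frees p53 from Mdm2, it binds paired decamer elements and switches on genes for cell cycle arrest, repair and apoptosis. In B cells this pathway limits survival after damage, including damage from antibody gene rearrangement. ZFP36L1 binds AU-rich elements in the 3' ends of mRNAs and speeds their decay, and such elements occur in many stress response and cell cycle mRNAs.

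Both kinds of sequence are shown here for the genes where they were found in the regions scanned, promoter windows and 3' UTRs. A p53 element outside the promoter windows, such as in an intron, was not sought. Of the 2 genes that changed below, Ccng1 held both kinds in these regions and Zfp385a held neither there. In the RefSeq table of promoter windows (GRCm38.p6, 250 bases before to 50 bases after each start), 8 of the 10 genes had at least 1 window. A p53 element, read as 2 decamers in tandem with at most 2 mismatches and the C and G of each core intact, was present in 2 of these 12 windows and in 107 of 32851 windows in all (0.326%). The consensus is the same on both strands, so 1 scan covers both. The element of Cdkn1a lies at chr17:29090928-29090947 on the plus strand, 51 to 32 bases before a start, and that of Ccng1 at chr11:40755462-40755481 on the minus strand, 195 to 176 bases before the start. Each departs from the consensus at 1 base, and capitals mark the 4 central bases of each decamer.
Cdkn1a: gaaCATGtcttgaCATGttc
Ccng1: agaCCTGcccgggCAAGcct
These are matches to a pattern, and binding was not measured.

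The heptamer UAUUUAU, the core recognised by the ZFP36 family, was sought on the sense strand of the longest annotated 3' UTR of each gene (GENCODE M21, GRCm38). It was found in 3 of the 10 genes, against 29.7% of 10961 tested genes with a 3' UTR, a share close to that of genes at large. Capitals mark the heptamer, in windows of 29 bases at chr10:117688915-117688943 (minus strand), chr11:40749077-40749105 (minus), chr4:11171739-11171767 (plus) and chr4:11172065-11172093 (plus), in that order.
Mdm2: ggcauugauguUAUUUAUuugcaaauaaa
Ccng1: cucugaaaaugUAUUUAUugcacuaaagu
Trp53inp1, first site: acuuccccuuuUAUUUAUuuguuuucuaa
Trp53inp1, second site: cccaccacauuUAUUUAUcccuuaaguac
No UAUUUAU was found in the 3' UTRs of Trp53, Cdkn1a, Sesn1, Zmat3, Phlda3, Aen or Zfp385a. Of the shorter AUUUA, Mdm2, Ccng1, Zmat3 and Trp53inp1 held 8 copies each, Cdkn1a 4 within 1334 nt, Sesn1 2 and Trp53 1. Aen, Phlda3 and Zfp385a held none. Of the 8 genes with a promoter window, Ccng1 alone had both a p53 element there and a heptamer in the 3' UTR, and Trp53inp1 and Zmat3 had no window to scan.

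Libraries held 38947758 to 51024233 counts, and levels are given as counts per 1000000 (CPM) on library sizes scaled by TMM factors. Zfp36l1 itself was lower in the libraries labelled GFP-ZFP36L1, at 439 ± 28.6 against 547 ± 35.1 CPM in controls (SD, n = 4 each), so these libraries are named by their label throughout. Each gene has 1 count per library, so allele transcripts are not separated from endogenous ones. B cell markers were at a summed 16130 to 17294 CPM in controls and 14056 to 15990 CPM in the labelled libraries. None of the 10 markers had a mean under 1 CPM. Pax5 and Ighd were called lower by the edgeR test described below. Cd22 and Fcer2a lay lower in all 4 labelled libraries than in any control. DESeq2 called both (adjusted p 0.000354 and 0.00945), but edgeR did not (adjusted p 0.0934 and 0.102). Cr2 and Cd93 went the other way, with means of 1327 against 1256 and 11.3 against 10.5 CPM, and were not called. Markers of T cells, NK cells and myeloid cells had summed levels whose ranges overlapped between groups, at no more than 34.8, 3.83 and 7.35 CPM, with Ncr1 at 0 counts in all libraries and 6 of 7 T cell markers under 1 CPM. Within the 8 myeloid markers 2 moved apart: Itgam was called higher in the labelled libraries, at 2.62 to 4.03 against 1.49 to 2.27 CPM (edgeR adjusted p 0.0395). Adgre1 lay lower in all 4, at 1.73 ± 0.650 against 3.21 ± 0.574 CPM, and was called by DESeq2 (adjusted p 0.0109) but not by edgeR (adjusted p 0.0815). The summed erythroid and plasma cell markers also overlapped, at no more than 13.3 and 125 CPM. The summed plasmacytoid dendritic cell markers were higher in the labelled libraries, at 35.0 to 40.2 against 27.0 to 34.5 CPM. Nearly all of that sum was Bst2, which B cells also express, and Siglech had at most 3 counts in any library. The part of these shifts in the results below was not tested, and fewer cells of a type cannot be told apart from less RNA per cell.

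Of the 9 genes tested, 2 rose and 0 fell: Zfp385a, a zinc finger partner of p53, and Ccng1, encoding cyclin G1. The other 7, among them Trp53, Mdm2 and Cdkn1a, did not pass. A call here is an adjusted p under 0.05 from the quasi-likelihood test of edgeR, with Benjamini-Hochberg adjustment over all genes. Of all genes tested 3.12% were called, 1.83% higher and 1.3% lower. In 4 of the 9 genes the groups of libraries did not overlap, higher in Zfp385a and Ccng1 and lower in Trp53 and Mdm2. Of all genes tested 11.2% had no overlap, 6.24% higher and 4.98% lower. The median log2 fold change of the 9 was -0.02, with 4 above 0 and 5 below, and that of all genes tested was -0.01. The fold changes of the set thus lay on both sides of 0.

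**Figure D1:**
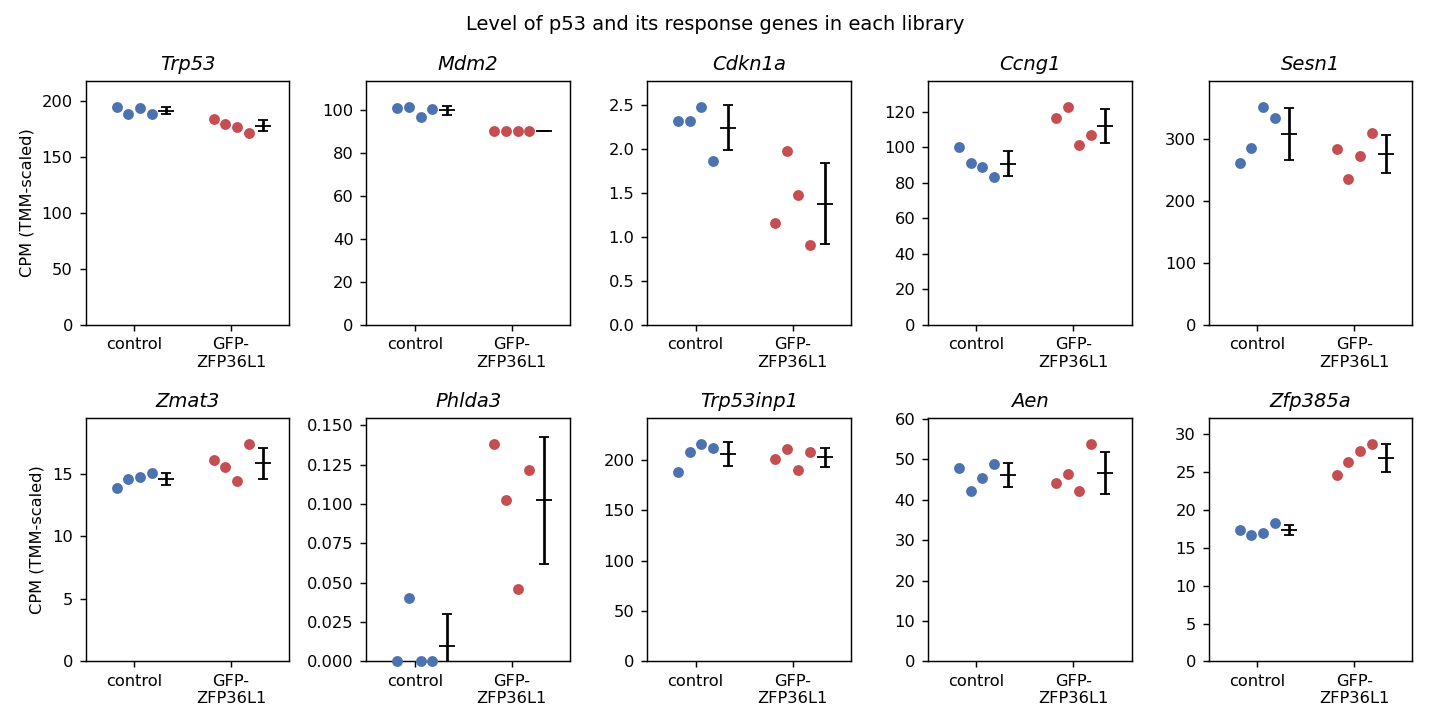
CPM of each gene (vertical axis, from 0) in the 4 control libraries (blue) and the 4 libraries labelled GFP-ZFP36L1 (red), with 1 point a library and the mean ± SD in black beside them. Zfp385a and Ccng1 lie higher and Trp53 and Mdm2 lower in every labelled library than in any control, and in Phlda3 all points rest on 6 or fewer reads.

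Among the genes that act on p53 itself, Trp53 (ENSMUSG00000059552, chromosome 11, 69580359 to 69591873, plus strand) encodes the transcription factor. It stood at 194.7, 188.7, 193.8 and 189.04 CPM in control replicates 1 to 4 and at 183.8, 179.9, 177.1 and 171.8 CPM in labelled replicates 1 to 4. Every labelled library lay below every control, by a gap smaller than the range of the controls. The log2 fold change was -0.10 ± 0.05 (SE; edgeR adjusted p 0.264), so the gene was not called. On plain library totals the groups still did not overlap, while the log2 ratio of the means was -0.05, nearer to 0. The difference in Trp53 thus depends in size on the scaling. The processed pseudogene Trp53-ps had no counts. The p53 paralogs Trp63 and Trp73, which recognise the same kind of element, had 0 counts in every library.

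Mdm2 (ENSMUSG00000020184, chromosome 10, 117688875 to 117710758, minus strand), the ligase that marks p53 for destruction, stood at 100.9, 101.3, 96.6 and 100.3 CPM in the controls. The labelled libraries were at 90.24, 90.17, 90.14 and 90.05 CPM. On TMM-scaled sizes they differed among themselves less than counting alone would give. The Poisson error of 1 library was 1.43 CPM, against an SD of 0.0787 CPM. On plain library totals they ran from 89.2 to 94.9 CPM, just under the controls at 95.03 to 99.7 CPM. The log2 ratio of the means was then -0.09. With TMM scaling the groups stood apart, yet the log2 fold change was small, -0.15 ± 0.04 (SE; edgeR adjusted p 0.0850). Mdm2 was called by DESeq2 and by limma voom, at adjusted p of 0.0136 and 0.0459. These tools called 7% and 8.08% of all genes with an adjusted p. With the number in each sample's title (1 to 8) as a covariate in the edgeR fit, Mdm2 also passed, at adjusted p 0.0334. That fit called 7.9% of all genes, against 3.12% in the main test.

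Ccng1 (ENSMUSG00000020326, chromosome 11, 40748552 to 40755311, minus strand) encodes cyclin G1, a p53 target that brings the phosphatase PP2A to Mdm2. Control replicates were at 100.2, 90.9, 89.1 and 83.1 CPM, and labelled replicates at 116.5, 122.6, 101.3 and 107.03 CPM. The lowest labelled library lay just above the highest control. Ccng1 rose by a log2 fold change of 0.30 ± 0.07 (SE), a ratio of means of 1.23 (edgeR adjusted p 0.0459). That call was lost without control replicate 2, 3 or 4 or labelled replicate 2 or 3, at adjusted p of 0.0599 to 0.144 in the same test, while the log2 fold change stayed between 0.25 and 0.35. Ccng1 and Mdm2 both have a p53-dependent promoter by textbook knowledge and held 1 heptamer each, though the Mdm2 window scanned held no p53 element. Their log2 fold changes lay on opposite sides of 0, and Mdm2 was not called by edgeR. The part of either sequence in these values was not tested.

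Zfp385a (ENSMUSG00000000552, chromosome 15, 103313895 to 103340093, minus strand) encodes a zinc finger protein, also called HZF, that is induced by p53 and directs it towards promoters of cell cycle arrest genes. It had the clearest difference of the set. The controls were at 17.4, 16.7, 17.0 and 18.2 CPM and the labelled libraries at 24.6, 26.3, 27.8 and 28.7 CPM. All 4 labelled libraries stood well above all 4 controls, which were tight, with an SD of 0.670 CPM against a counting error of 0.631 CPM. Zfp385a rose by a log2 fold change of 0.63 ± 0.07 (SE), a ratio of means of 1.55 (edgeR adjusted p 0.00141). By unadjusted p it ranked 5 among the 13035 genes tested. It was called under all 15 alternatives, which left out each library in turn or changed the test, scaling, filter, prior or covariate, with log2 fold changes from 0.61 to 0.68 and adjusted p of at most 0.0125.

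**Figure D2:**
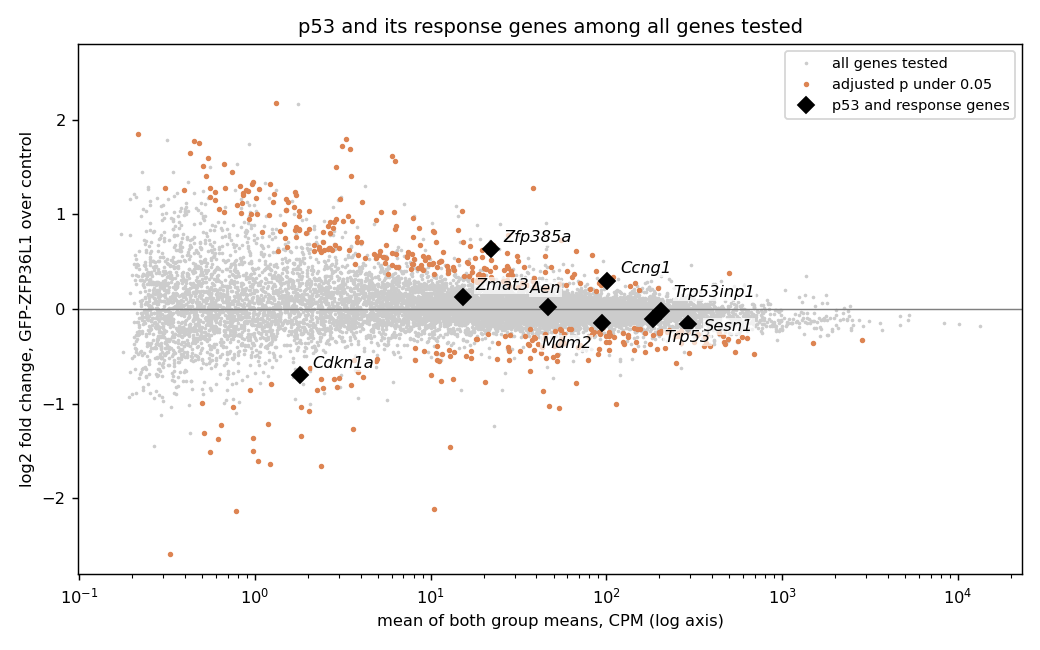
log2 fold change (labelled GFP-ZFP36L1 over control) against mean level in CPM on a log axis, for all genes tested (grey), those called (orange) and the 9 genes of the p53 set tested (black diamonds). Zfp385a lies at 0.63 and Ccng1 at 0.30, and Cdkn1a, the lowest in level, at -0.70 without a call.

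Of the genes that restrain growth, Cdkn1a (ENSMUSG00000023067, chromosome 17, 29090976 to 29100727, plus strand) encodes p21, the inhibitor of cyclin-dependent kinases through which p53 stops the cell cycle. It was low throughout, at 2.32, 2.31, 2.47 and 1.87 CPM in the controls and 1.15, 1.97, 1.48 and 0.901 CPM in the labelled libraries. Labelled replicate 2 lay within the range of the controls, and the other 3 lay below it. These levels rest on 76 to 115 reads in the controls and 37 to 96 in the labelled libraries, whose SD of 0.462 CPM exceeded the counting error of 0.175 CPM. The log2 fold change was -0.70 ± 0.22 (SE), the widest difference among the 9 genes tested (edgeR adjusted p 0.115). DESeq2 alone of the alternatives called it, at an adjusted p of 0.0439. Without labelled replicate 2 the log2 fold change was -0.93 and the edgeR adjusted p 0.0534, short of the threshold.

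Sesn1 (ENSMUSG00000038332, chromosome 10, 41809935 to 41908424, plus strand) encodes sestrin 1, a brake on mTORC1 signalling. It varied widely within the groups, at 261.2, 285.4, 351.1 and 333.1 CPM in the controls and 283.6, 235.1, 273.0 and 309.98 CPM in the labelled libraries. The groups overlapped, and the SD of the controls, 41.6 CPM, exceeded the counting error of 2.66 CPM. The log2 fold change was -0.16 ± 0.10 (SE; edgeR adjusted p 0.470), and its 95% interval ran from -0.36 to 0.04.

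Phlda3 (ENSMUSG00000041801, chromosome 1, 135766119 to 135769136, plus strand), a p53 target that represses the kinase Akt, was at the edge of detection. It had 0, 2, 0 and 0 reads in control replicates 1 to 4 and 6, 5, 2 and 5 reads in the labelled replicates. The sums of 18 and 2 reads gave a ratio of 8.89, with an exact 95% interval of 2.13 to 79.0 that covers counting error only. Scaled to library size, the labelled libraries all lay above the controls. The exact two-sided permutation p was 0.0286, the smallest that the 70 assignments of 4 libraries can give. This p restates that the groups did not overlap, as was so for 11.2% of all genes tested, and is not adjusted over genes. Phlda3 did not pass the filter on low counts, and with that filter removed edgeR gave it an adjusted p of 0.106. Since 3 reads amount to 0.0603 to 0.0737 CPM, labelled replicate 3 and every control were under that floor.

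None of the 3 genes linked to apoptosis and stress passed the test. Aen (ENSMUSG00000030609, chromosome 7, 78895854 to 78911209, plus strand), a nuclease that enhances apoptosis, ranged from 42.1 to 48.8 CPM in controls and from 42.2 to 53.9 CPM in the labelled libraries. Trp53inp1 (ENSMUSG00000028211, chromosome 4, 11156431 to 11174379, plus strand), a stress-induced partner of p53 that also acts in autophagy, ranged from 188.5 to 216.0 and from 189.8 to 211.1 CPM. Zmat3 (ENSMUSG00000027663, chromosome 3, 32334792 to 32366014, minus strand), an RNA-binding zinc finger protein, ranged from 13.9 to 15.1 and from 14.4 to 17.4 CPM. The ranges of the groups overlapped in all 3 genes. Their log2 fold changes were 0.02 ± 0.08, -0.02 ± 0.06 and 0.12 ± 0.07 (SE), and the 95% intervals, -0.13 to 0.17, -0.14 to 0.09 and -0.02 to 0.26, leave room for small shifts. Their adjusted p from edgeR were 0.933, 0.877 and 0.429. Trp53inp1, which held 2 heptamers, had no detected difference, and the part of the heptamers was not tested.

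Set against each other per kb of annotated exon, the genes spanned a wide range of levels. In controls the order was Sesn1, at 77.3 ± 10.4 CPM per kb, then Trp53 (47.4 ± 0.780), Trp53inp1 (31.8 ± 1.88), Ccng1 (25.9 ± 2.01) and Mdm2 (19.6 ± 0.421). Below these came Aen (7.94 ± 0.510), Zfp385a (6.89 ± 0.267), Zmat3 (1.27 ± 0.0441), Cdkn1a (0.631 ± 0.0736) and Phlda3 (0.00645 ± 0.0129, SD, n = 4 each). No neighbours in that order overlapped in the controls, although Aen and Zfp385a were separated by little, their ranges being 7.26 to 8.41 and 6.64 to 7.25 CPM per kb. In the labelled libraries Zfp385a (10.7 ± 0.714) stood above Aen (8.04 ± 0.880), and Ccng1 (31.9 ± 2.71) overlapped Trp53inp1 (31.3 ± 1.46). These orders assume that every annotated exon is used. Cdkn1a, which encodes the growth inhibitor p21, thus had a far lower level in CPM per kb than Trp53, in both groups.

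**Figure D3:**
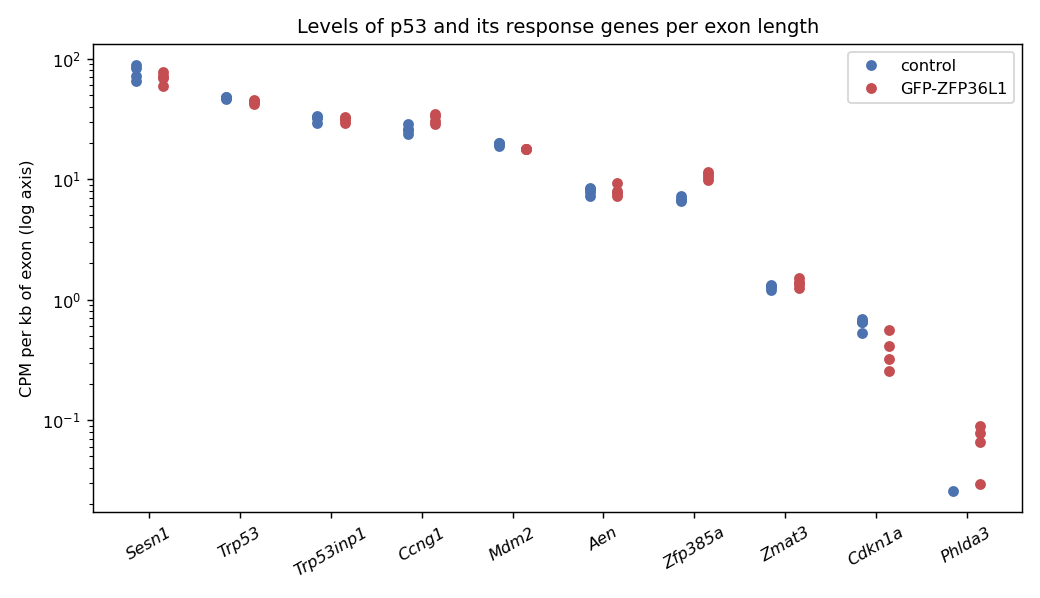
CPM per kb of annotated exon (log axis) for each gene, in order of the control mean, with 1 point a library in controls (blue) and in the libraries labelled GFP-ZFP36L1 (red). Sesn1 is highest and Phlda3 lowest, libraries with 0 reads of Phlda3 cannot be drawn on a log axis, and Zfp385a passes Aen in the labelled libraries.

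The authors' deposited table gives the same directions for these genes. An adjusted p under 0.05 is listed for 4 of the 10 genes in the authors' deposited table, and for 6.63% of its 13191 genes with an adjusted p. Those of the authors' deposited table are Zfp385a (log2 fold change 0.58, adjusted p 1.44e-14), Ccng1 (0.27, 0.00673), Mdm2 (-0.14, 0.0199) and Cdkn1a (-0.35, 0.0396). DESeq2 as run here called the same 4 genes, where 7% of genes with an adjusted p were called. It gave Cdkn1a a log2 fold change of -0.70, larger in size than the deposited -0.35. Sizes are therefore not compared with the deposited ones, and the reason for the difference was not tested. The calls of Mdm2 and Cdkn1a thus depend on the tool, whereas that of Zfp385a does not.

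**Figure D4:**
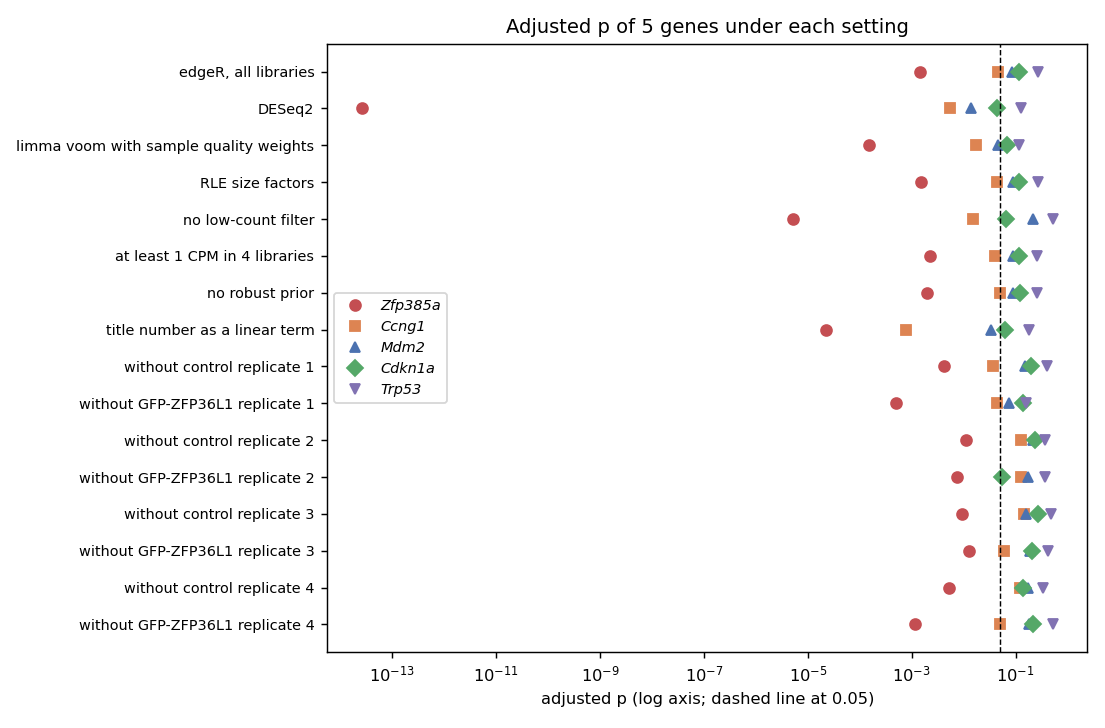
Adjusted p (log axis, dashed line at 0.05) of 5 genes under the main test and each of 15 alternatives, 1 row a setting. Zfp385a stays left of the line in every row, Ccng1 crosses it in 6 rows, and Trp53 lies right of it in all.

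Other genes of the pathway were read from lists by role. Of 22 tested regulators of p53, among them its kinases, acetylases and ubiquitin enzymes, 0 were called by edgeR, 0 by DESeq2 and 0 by limma voom, and 1 had an unadjusted p under 0.05, as did 17.3% of all genes tested. That was Trp53bp1, a reader of chromatin at DNA breaks, at 98.2 ± 8.43 in the labelled libraries against 87.5 ± 4.95 CPM. Chek2, a damage checkpoint kinase, and Rpl5, a ribosomal protein that can hold Mdm2 in check, had log2 fold changes of 0.19 ± 0.11 and -0.14 ± 0.09 (SE). The median of the 22 was 0.01. Cdkn2a, the gene of the Mdm2 inhibitor ARF, was too low to test.

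Among the apoptosis targets of p53, Bbc3, encoding PUMA, a BH3-only protein that sets off mitochondrial apoptosis, rose. The other 13 of 14 tested did not pass. By edgeR, 1.83% of all genes tested were called higher and 1.3% lower. Bbc3 stood at 1.48, 1.75, 2.19 and 1.97 CPM in the controls and at 3.15, 2.998, 3.80 and 3.61 CPM in the labelled libraries. The groups were well apart, with a log2 fold change of 0.88 ± 0.15 (SE; edgeR adjusted p 0.0135). Without control replicate 2 or labelled replicate 3 the edgeR adjusted p was 0.0571 or 0.0531, which ended the call. Aifm2, encoding the ferroptosis suppressor FSP1, had 2.47 ± 0.774 against 1.41 ± 0.261 CPM, and was called by DESeq2 and limma voom (adjusted p 0.0235 and 0.0280) but not by edgeR (adjusted p 0.0911). Trp53i11 lay lower in all 4 labelled libraries than in any control, at 249 ± 9.61 against 282 ± 4.65 CPM. It was called by DESeq2 and limma voom (adjusted p 0.00308 and 0.0171) but not by edgeR (adjusted p 0.0816). The median log2 fold change of the 14 was -0.01, with 7 above 0 and 7 below.

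Targets for arrest, repair and metabolism had 2 members that fell and 0 that rose, with 16 of 18 not passing and a median of -0.02. Among all genes tested, edgeR called 1.3% lower and 1.83% higher. Gadd45a, a stress sensor that slows the cell cycle, was at 9.02 ± 1.24 against 12.4 ± 1.24 CPM, a log2 fold change of -0.46 ± 0.11 (SE). Plk2, a polo-like kinase, was at 2.98 ± 0.348 against 4.34 ± 0.522 CPM, a log2 fold change of -0.54 ± 0.13 (SE). Their edgeR adjusted p were 0.0452 and 0.0489, and both calls were lost, at up to 0.146, without any library except labelled replicate 1. Btg2, an antiproliferative gene, did not pass, at 331 ± 33.5 against 389 ± 23.0 CPM. Summed dissociation response genes ran from 101.6 to 160.01 CPM in controls and from 124.7 to 249.8 CPM in the labelled libraries. The labelled libraries had higher means of Fos, Fosb, Jun, Hspa1a and Hspa1b and lower means of Egr1 and Atf3. Fos lay below every control in labelled replicates 1 and 2, at 8.84 and 8.48 CPM. In labelled replicates 3 and 4 it lay above every control, at 30.9 and 46.9 CPM. The part of these dissociation genes in the result was not tested.

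Downstream of p21, in the list of cyclin-dependent kinases, cyclins, RB proteins and E2F factors, 2 of 18 members fell and 0 rose. The shares of all genes tested that edgeR called were 1.3% lower and 1.83% higher. E2f2, an activator of S phase genes, was at 49.9 ± 6.15 against 64.1 ± 3.29 CPM, and Ccne1, encoding cyclin E1, at 4.06 ± 0.583 against 5.84 ± 0.532 CPM. In edgeR their adjusted p were 0.0362 and 0.0445. The call of E2f2 was lost without control replicate 2, 3 or 4 or labelled replicate 2 or 4, and that of Ccne1 without any library except labelled replicate 1, at adjusted p of up to 0.108 and 0.140. E2f3, of the same family, had 21.3 ± 1.54 against 17.9 ± 1.49 CPM and did not pass. Of 13 tested genes that p53 lowers through p21 and the DREAM complex, 0 were called by edgeR. DESeq2 and limma voom called 1 each, where they called 7% and 8.08% of all genes with an adjusted p. In edgeR 3 of the 13 had an unadjusted p under 0.05, a share near the 17.3% of all genes tested. These 3 were Aurkb and Ccnb2, with log2 fold changes of -0.41 ± 0.12 and -0.47 ± 0.19 (SE), and Ccnb1, with 0.49 ± 0.18 (SE), all mitotic genes at 4.77 CPM or less.

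**Figure D5:**
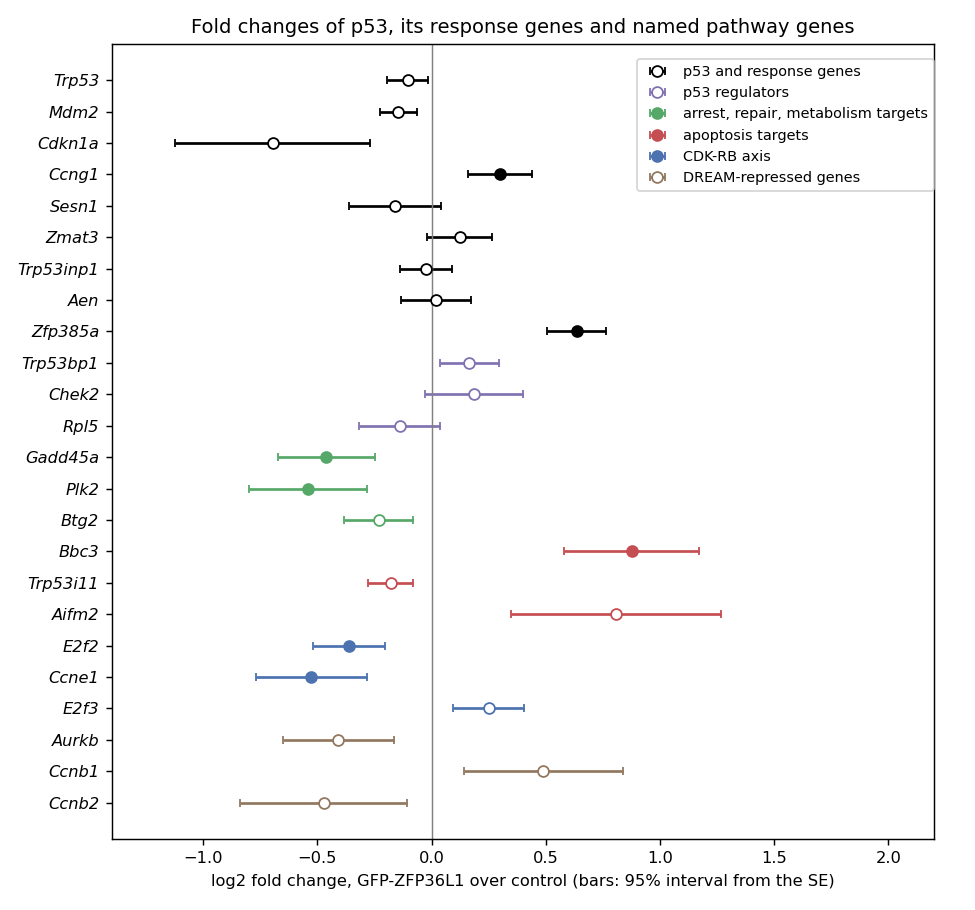
log2 fold change (labelled GFP-ZFP36L1 over control) with its 95% interval for the 9 genes of the p53 set tested (black) and the named genes of each pathway list (colours), filled where the adjusted p was under 0.05. Filled points lie to the right for Zfp385a, Ccng1 and Bbc3 and to the left for Gadd45a, Plk2, E2f2 and Ccne1.

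The genes whose profile over the 8 libraries was nearest to 3 of the set were found among 9497 genes of at least 5 CPM, by the root mean square difference of log2 CPM after each gene's mean was removed. Nearest to Trp53 were Actl6a, a subunit of chromatin remodelling complexes (0.0136), Slc25a45 (0.0187) and Usp12 (0.0192). Nearest to Mdm2 were Dolpp1 (0.0218), Sh2b3, an adaptor of cytokine signalling (0.0225), and Slc25a25 (0.0248). Nearest to Cdkn1a were the predicted gene Gm15675 (0.128), the phosphodiesterase gene Pde1b (0.167) and Nup210l (0.184), all 3 of them called lower. These distances scale with each gene's own spread, an SD of log2 CPM over the 8 libraries of 0.0641 for Trp53, 0.0805 for Mdm2 and 0.395 for Cdkn1a, so they are not compared between the 3 genes. The difference between groups is part of this measure.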

How the data were processed

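RNA from sorted splenic follicular B cells was sequenced in 8 libraries, 4 a group, with a stranded mRNA kit and paired reads of 100 bp per the labels. The gate in the labels is positive for B220, CD93, CD21 and CD23. The submitters' processing notes name GRCm38, DESeq2 1.10.1, HTSeq, TopHat2 2.0.12 and Trim Galore, without settings. Whether counting used strand is not stated in the sources used here. Whole-number raw counts per Ensembl gene, as the authors deposited them, were the basis of every test here. From the authors' deposited comparison table, log2 fold changes and p-value columns were copied. Symbols, exon lengths and 3' UTRs came from GENCODE M21.

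Tests were run with edgeR 4.0.16 in R 4.3.3 (filterByExpr, TMM, robust quasi-likelihood fit, group as sole term). Alternatives were DESeq2 1.42.0, limma voom (3.58.1) with quality weights, RLE factors, no filter, at least 1 CPM in 4 libraries, no robust prior, the title number as a linear term, and each library left out. The procedure was tested on simulated data. Intervals on fold changes are 1.96 SE. No gene set test was made, and the genes and lists were chosen with earlier results of these data known. Named genes were the 10 genes, Zfp36l1, all called genes or the 3 smallest p in each pathway list, and the 3 nearest profiles. Of 24 regulators, Trp53rk matched no symbol. Replicate numbers follow accession order and pair nothing. The deposited normalized values were not used.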

Additional observations from a re-analysis of the deposited data

Results flagged for a closer look

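In 52 groups of 4 libraries, 2 for each of 26 named genes, 4 held a library far from the other 3, where chance flags about 1 in 20. Phlda3 in control replicate 2 was at 0.0402 CPM, which is 2 reads, against 0 in the other controls. Zfp36l1 in control replicate 1 was at 599 CPM against 523 to 535 CPM in the others. Trp53bp1 in control replicate 1 was at 80.1 CPM against 89.6 to 90.3 CPM. Chek2 in labelled GFP-ZFP36L1 replicate 2 was at 16.8 CPM against 13.6 to 13.9 CPM in the other 3 libraries of its group.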

How the results depend on the processing

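No paired analysis was possible because the labels give no replicate number shared between the groups. Called genes numbered 407 in the main test, 895 with DESeq2, 1053 with limma voom and 1030 with the title number as covariate, and 79 to 948 with 1 library left out. Of the p53 set, 2 genes were called in the main test, 4 with DESeq2, 1 without the robust prior, and 1 to 2 with 1 library left out. Zfp385a was called throughout. Mdm2 passed with DESeq2 (-0.14), limma voom (-0.14) and the title number (-0.14), Cdkn1a with DESeq2 (-0.70), and Ccng1 missed the threshold without the robust prior (0.30), at an adjusted p of 0.0505 in edgeR's test. With 1 library left out the log2 fold change of Ccng1 ran from 0.25 to 0.35, of Trp53inp1 from -0.0654 to 0.00529 and of Aen from -0.0512 to 0.0647. The sign of Aen also turned with limma voom (-0.0127) and the title number (-0.00591). Apoptosis targets called numbered 1 in the main test, 3 with DESeq2, 3 with limma voom, 2 without the filter, 3 with the title number and 0 to 3 with 1 library left out. Arrest, repair and metabolism targets numbered 2, 4 with limma voom, 1 with the 1 CPM filter, 1 without the robust prior and 0 to 3 with 1 library left out. The CDK and RB list had 2, and 0 to 3 with 1 library left out. The DREAM list had 0, 1 with DESeq2, 1 with limma voom and 2 with the title number. The cause of these shifts was not tested. Leaving out a library leaves fewer samples, and 948 genes were called without labelled replicate 1. Depth limits Phlda3, at 6 reads or fewer a library.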
